A study of Caenorhabditis elegans with 12 samples.

Results

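Astacins and neprilysins are zinc metalloproteases of Caenorhabditis elegans that act outside the cell or at its surface. The members were the genes named nas (astacin) or nep (neprilysin) whose array probe set, a group of short probes that together read a transcript, is assigned to 1 gene only, and where a gene had several of these, the one with the highest mean stood for it. This gave 58 genes, 33 astacins and 25 neprilysins, read from 64 probe sets, out of 17118 genes with such a probe set. The RefSeq gene table of assembly WBcel235 lists 37 nas and 26 nep genes. Of these, nas-2 and nep-15 shared their probe set with another gene, and nas-3, nas-23 and nas-40 are not analysed here. The table marks nep-7, nep-14 and nep-19 as pseudogenes.

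Total RNA of intact N2 worms, the wild-type strain, was measured on 12 Affymetrix arrays, 3 biological replicates in each of 4 groups: fed hermaphrodites, fasted hermaphrodites, fed males and fasted males. All groups grew at 20 C and, from the young adult stage, on plates with 200 ug/ml of FUdR, an inhibitor of DNA synthesis that kept progeny from hatching. The sexes were separated by filtration. From day 2 of adulthood the fed groups had food without limit and the fasted groups had none for 48 h, so that RNA was taken at day 4. FUdR was thus part of every group, and a level here is that of a whole body with its germ line, sperm, oocytes and gut together.

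Astacins, named after a digestive enzyme of crayfish, are secreted as inactive precursors and are switched on when a propeptide is removed. In C. elegans members of the family act in hatching, in the processing of cuticle collagen, in shedding of the old cuticle at the moult and in the lining of the pharynx. Neprilysins are mostly membrane enzymes with the active site outside the cell, and they cut small peptides. In mammals their substrates include enkephalins and amyloid beta, and in the fruit fly members of the family are needed for normal fertility. In C. elegans nep-1 has been studied in locomotion and pharyngeal pumping, and nep-2 in the turnover of a neuropeptide in olfactory learning.

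Values are log2 signals as the authors deposited them, and all levels below are on that scale. Differences are in log2 units with the standard error of limma's fit, in which the 4 group means of all 12 arrays share a common estimate of the spread. A probe set was tested where it lay above log2 6.01, the 40th percentile of all values, on at least 3 arrays, which left 15913, and a difference was called at a Benjamini-Hochberg adjusted p under 0.05 over all of them. Arrays of a group correlated at r = 0.957 to 0.975. Lists of marker genes separated the sexes as labelled: 14 of 14 oocyte and maternal genes were lower in fed males (median difference -5.17), 14 of 15 sperm genes were higher (median 4.29) and 9 of 9 tested genes of male somatic tissue and seminal fluid were higher (median 4.11). Of the 11 measured genes of the last list klp-6 and ram-5 did not pass the filter. Their means were 5.07 and 3.46 in fed hermaphrodites and 3.81 and 3.95 in fed males. Genes such as mab-3, lov-1 and spe-4 lay below the filter value on every hermaphrodite array. They entered the test through male arrays alone, so these counts of higher genes are descriptions. Beside each of the list counts, 38.9% of all tested probe sets were higher in fed males and 35.9% lower. Genes of intestine, pharynx, neurons and body wall muscle were also mostly higher in fed males, at 10 of 14, 8 of 8, 10 of 12 and 10 of 12. The part of these shifts in the results below was not tested, and in whole worms fewer cells of a type and less RNA per cell cannot be told apart.

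The filter split both families. Among the astacins 16 of 33 passed, and 17 did not (nas-1, nas-4, nas-6, nas-7, nas-10, nas-12, nas-13, nas-14, nas-15, nas-16, nas-18, nas-21, nas-25, nas-27, nas-29, nas-30 and nas-36), with values between 0 and 6.67. Among the neprilysins 16 of 25 passed, and the 9 others (nep-3, nep-4, nep-7, nep-12, nep-14, nep-16, nep-19, nep-24 and nep-26) lay between 0 and 7.08. Of the 32 that passed, 4 astacins (nas-17, nas-19, nas-22 and nas-24) and 10 neprilysins (nep-2, nep-5, nep-6, nep-8, nep-9, nep-10, nep-18, nep-20, nep-23 and nep-25) did so through male arrays alone, and nas-37 through hermaphrodite arrays alone. Since such genes could enter the test only where they were high in that sex, counts over the tested members are descriptions and not evidence about the families. For 8 tested members (nas-9, nas-32, nas-37, nep-9, nep-10, nep-21, nep-22 and nep-23) the probe set is of the type that may read related transcripts as well, and whether it did was not tested.

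Most tested members of both families were higher in males. In fed worms 10 of 16 tested astacins were higher in males and 1, nas-37, was lower, and 14 of 16 tested neprilysins were higher and 1, nep-1, was lower. Over all tested probe sets 74.8% were called in this comparison, 38.9% as higher in males and 35.9% as lower. The fasted worms were measured on other arrays, but both comparisons share the filter and the estimate of the spread. In fasted worms 10 astacins were higher and 1 lower, and 15 neprilysins were higher and 1 lower, against 70.7% called over all probe sets, 38% higher and 32.7% lower. Of the 26 members called in fed worms and 27 in fasted worms, 25 were called in both with the same direction. In fed worms the arrays of the sexes did not overlap for 13 tested astacins and 15 tested neprilysins, beside 78.3% of all tested probe sets, and in fasted worms for 11 and 15, beside 74.3%. The exceptions in the calls were nas-39, called in fed worms, and nas-5 and nep-2, called in fasted worms. The median difference of the tested astacins was 1.01 in fed and 1.13 in fasted worms and that of the tested neprilysins 2.56 and 2.74, beside 0.13 and 0.12 over all tested probe sets. These medians are descriptions too, since 4 of the tested astacins and 10 of the tested neprilysins had passed through male arrays alone. Among members above the filter value on at least 3 arrays of each sex, 6 of 7 astacins and 4 of 5 neprilysins were higher in males, both fed and fasted.

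How the arrays were scaled moved these comparisons as a whole. The deposited values share a trimmed mean. When each array was centred on its median instead, the median sex difference over all tested probe sets went from 0.13 to -0.41 in fed worms and from 0.12 to -0.50 in fasted worms. The share of all sex calls in fed worms that were higher in males went from 52.0% to 35.9%, and in fasted worms from 53.7% to 32.8%. Under that centring 8 astacins were higher and 3 lower in fed males, and 13 neprilysins were higher and 1 lower.

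**Figure D1:**
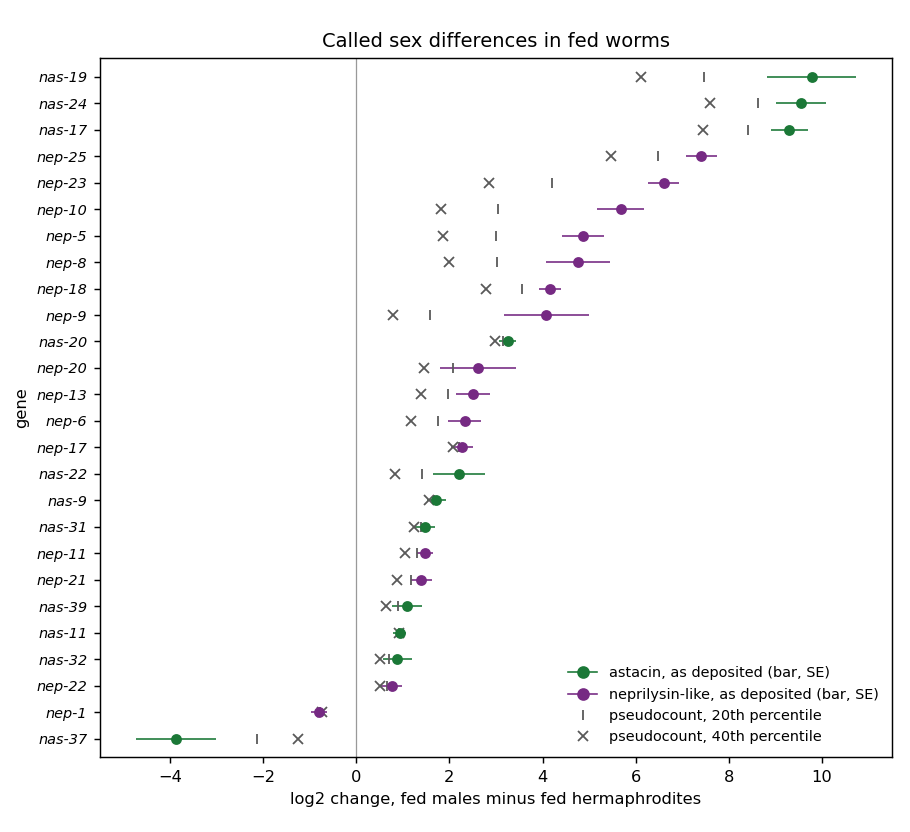
Difference between fed males and fed hermaphrodites (log2, males minus hermaphrodites) for the 26 members called in that comparison, as circles with bars for the standard error, beside the value with 20.1 (vertical tick) or 64.6 (cross) signal units added before the logarithm. All but nas-37 and nep-1 lie above 0, and the cross lies far from the circle for genes that were low in 1 sex, such as nep-9 at 4.08 and 0.79.

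The largest sex differences among the astacins were in 3 genes of the subgroup whose proteins carry EGF and CUB domains next to the protease. For nas-24, fed males read 14.08, 14.09 and 13.99, fasted males 13.83, 13.96 and 13.70, fed hermaphrodites 3.97, 5.13 and 4.41, and fasted hermaphrodites 2.63, 5.58 and 4.55. Every male array was thus high and every hermaphrodite array below the filter value, and the difference was 9.55 ± 0.54 in fed worms (limma adjusted p = 1.01e-08) and 9.58 ± 0.54 in fasted worms. For nas-17, fed males read 14.12, 13.94 and 13.87 and fasted males 13.32, 12.80 and 12.76, whereas hermaphrodites read 5.44, 4.99 and 3.61 when fed and 4.97, 4.10 and 3.77 when fasted. Its difference was 9.30 ± 0.40 in fed worms (limma adjusted p = 1.02e-09) and 8.68 ± 0.40 in fasted worms. For nas-19, fed males read 12.39, 12.35 and 12.31 and fasted males 11.82, 11.63 and 11.56, with hermaphrodites at 2.04, 0.74 and 4.93 when fed and at 2.39, 0.55 and 4.31 when fasted. The hermaphrodite arrays of nas-19 were spread over several log2 units, so that its difference of 9.78 ± 0.95 (limma adjusted p = 1.28e-06) rests on values at the bottom of the scale. With 64.6 signal units, the 40th percentile, added to every value before the logarithm, the fed difference was 7.59 for nas-24, 7.45 for nas-17 and 6.12 for nas-19, and all 3 were still called.

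Of the other members of this subgroup that passed, nas-20 and nas-22 were also higher in males and nas-28 was not called. The astacin nas-20 was measured above the filter value in both sexes. It read 11.78, 11.36 and 10.98 in fed males, 11.23, 11.54 and 11.38 in fasted males, 8.24, 7.88 and 8.25 in fed hermaphrodites and 7.46, 7.61 and 7.49 in fasted hermaphrodites. The sexes did not overlap, and the difference was 3.25 ± 0.19 when fed, or 9.54-fold (limma adjusted p = 1.07e-08), and 3.86 ± 0.19 when fasted, or 14.5-fold. The neighbouring nas-22 lay close to the filter value in males, at 6.23 to 6.60 when fed and 6.46 to 7.21 when fasted, against 3.15 to 5.03 and 3.30 to 5.29 in hermaphrodites. Its difference was 2.20 ± 0.56 in fed worms (limma adjusted p = 0.00324) and 2.68 ± 0.56 in fasted worms, and 0.83 and 1.13 with 64.6 signal units added. In all, 6 of the 13 measured members of the subgroup were tested, and 5 of them were higher in males in both feeding states. Over all tested probe sets 38.9% were higher in fed and 38% in fasted males. Of the 5, nas-17, nas-19, nas-22 and nas-24 had passed the filter through male arrays alone, so the count says nothing about the subgroup. The remaining tested member, nas-28, read 5.93 to 6.58 in hermaphrodites with food and 5.93 to 6.0 in males with food, which was not called (difference -0.19 ± 0.30, limma adjusted p = 0.581). Under median centring and under quantile normalization it was lower in males, at -0.73 and -0.79 in fed worms and at -1.22 and -1.17 in fasted worms. Without fasted hermaphrodite replicate 1 it was called as lower in fasted males (-0.91) and as higher in fasted than in fed hermaphrodites (0.95).

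**Figure D2:**
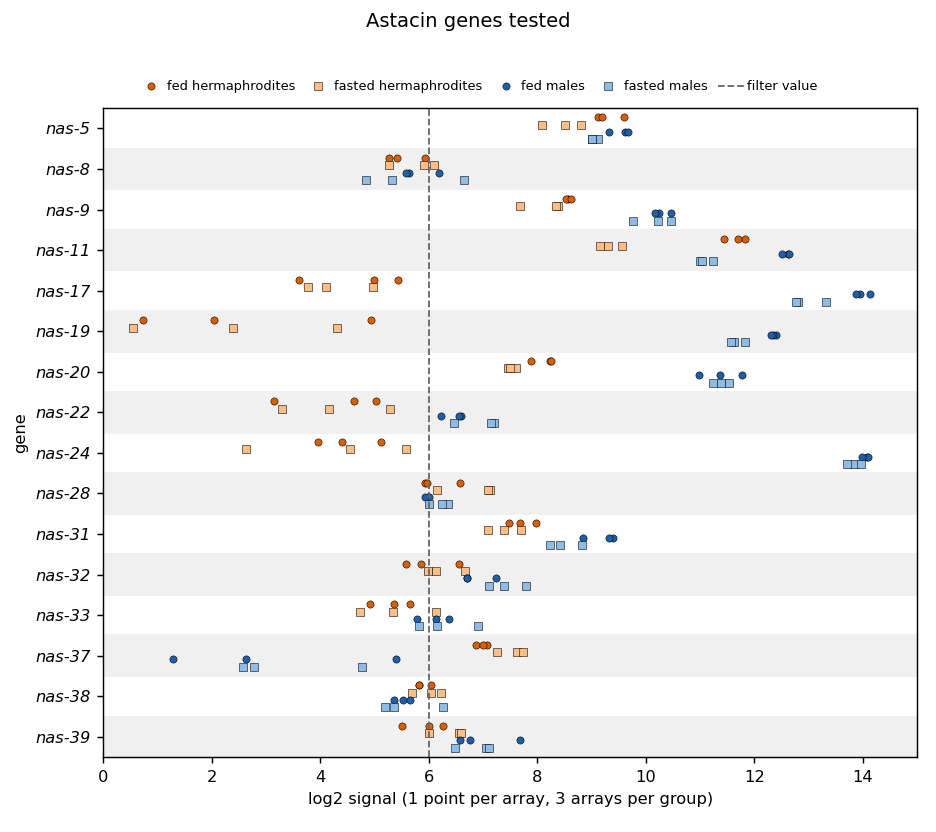
Log2 signal of each tested astacin on each of the 12 arrays, by group, with the filter value of 6.01 marked. The male arrays of nas-17, nas-19 and nas-24 lie between 11.56 and 14.12 and their hermaphrodite arrays between 0.55 and 5.58, whereas nas-37 shows the opposite order and nas-11 lies high in every group.

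Among the remaining astacins nas-9, nas-31 and nas-11 were called as higher in males in both feeding states. The level of nas-9 was 8.53 to 8.63 in fed hermaphrodites and 10.16 to 10.46 in fed males, without overlap, a difference of 1.72 ± 0.21, or 3.29-fold (limma adjusted p = 9.15e-06). When fasted it was 7.68 to 8.38 and 9.77 to 10.46, a difference of 2.02 ± 0.21. Its other probe set gave 1.77 and 2.21. For nas-31, fed hermaphrodites read 7.48 to 7.98 and fed males 8.84 to 9.40, a difference of 1.48 ± 0.22 (limma adjusted p = 6.79e-05), and fasted worms differed by 1.09 ± 0.22. The fasted difference of nas-31 was 0.47 and no longer called under median centring (adjusted p = 0.0748). The astacin nas-11, which lay above the filter value on all arrays, was also higher in males, by 0.93 ± 0.14 when fed (limma adjusted p = 4.62e-05) and by 1.74 ± 0.14 when fasted, and by 0.39 and 1.11 under median centring.

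For nas-32, nas-39 and nas-5 the call of a sex difference also changed with the scaling, and with single arrays left out. The difference of nas-32 was 0.88 ± 0.31 in fed worms (limma adjusted p = 0.0201) and 1.17 ± 0.31 in fasted worms. It fell to 0.35 and 0.54 under median centring and to 0.31 and 0.57 under quantile normalization, none of them called. The fed call of nas-32 was also lost without fed hermaphrodite replicate 1 (0.68) or 3 (0.81) or fed male replicate 3 (0.71), while its other probe set gave 1.16 and 1.48, both called. The difference of nas-39, which resembles the tolloid proteases that cut growth factor antagonists and procollagens, was 1.09 ± 0.33 in fed worms (limma adjusted p = 0.0103), 0.55 and not called under either other scaling, and 0.75 and not called without fed male replicate 3 (adjusted p = 0.0526). In fasted worms nas-39 differed by 0.50 ± 0.33, which was not called. For nas-5 the sexes overlapped when fed (0.24 ± 0.19, limma adjusted p = 0.267), although the difference was called under quantile normalization (0.56, adjusted p = 0.0122). When fasted, nas-5 read 8.09, 8.52 and 8.81 in hermaphrodites and 9.12, 9.0 and 9.0 in males, a difference of 0.57 ± 0.19 (limma adjusted p = 0.0174). That call was lost without fasted hermaphrodite replicate 1 (0.38) or fasted male replicate 1 (0.53) and turned to -0.06 under median centring (adjusted p = 0.808).

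A single tested astacin was lower in males, nas-37, whose probe set is among those that may read related transcripts. It encodes a protease that opens the old cuticle at the moult. The gene read 7.07, 6.87 and 7.0 in fed hermaphrodites, 7.26, 7.62 and 7.74 in fasted hermaphrodites, 1.29, 2.64 and 5.40 in fed males and 2.58, 2.78 and 4.77 in fasted males. All 6 hermaphrodite arrays lay above all 6 male arrays, and the male arrays were spread widely below the filter value. The difference was -3.87 ± 0.86 in fed worms (limma adjusted p = 0.00128) and -4.17 ± 0.86 in fasted worms, and -1.26 and -1.70 with 64.6 signal units added, all called. Its partner in moulting, nas-36, stayed between 2.29 and 5.72 and did not pass the filter. When all probe sets were tested, nas-36 went the other way. It was higher in fasted males by 1.96 ± 0.64 (limma adjusted p = 0.0207). In fed worms the difference was 1.31 ± 0.64 and not called (limma adjusted p = 0.104). The arrays of the sexes did not overlap in either state, and all lay below the filter value. Of 16 measured moulting genes, a list of related genes, 11 were tested, and in fed males 6 were lower and 1 was higher (median difference -1.24, beside 0.13 over all tested probe sets, of which 35.9% were lower and 38.9% higher). Lower were noah-1 (-1.68), noah-2 (-1.24) and fbn-1 (-2.22), which encode proteins of the apical matrix, with mlt-11 (-1.39) and the nuclear receptors nhr-23 (-1.06) and nhr-25 (-1.32), and lrp-1 was higher (1.01). The tested genes fbn-1, mlt-10 and mlt-11 lay below the filter value on every male array. They entered the test through hermaphrodite arrays alone, so the count and the median of this list are descriptions. The summed signal of the oocyte and maternal markers was 142150 to 159222 in fed hermaphrodites and 9433 to 12721 in fed males. That of the hypodermis and seam markers was 5861 to 6529 and 6195 to 6938. Of the 8 tested genes of the latter list 1 was higher and 2 were lower in fed males. The part of either list in the difference was not tested.

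Among the neprilysins nep-25 had the largest sex difference. It read 12.18, 11.88 and 11.61 in fed males, 11.48, 11.36 and 11.01 in fasted males, 4.29, 4.88 and 4.27 in fed hermaphrodites and 2.95, 2.44 and 3.95 in fasted hermaphrodites. The difference was 7.41 ± 0.33 when fed (limma adjusted p = 1.34e-09) and 8.17 ± 0.33 when fasted, and 5.47 and 5.11 with 64.6 signal units added. For nep-23, fed males read 8.64, 8.60 and 9.06 and fed hermaphrodites 2.46, 1.69 and 2.36, a difference of 6.60 ± 0.34 (limma adjusted p = 4.24e-09). For nep-18 the fed arrays read 9.35, 9.38 and 9.15 in males and 5.53, 4.80 and 5.07 in hermaphrodites, a difference of 4.16 ± 0.23 (limma adjusted p = 8.71e-09). Fasted worms differed by 5.84 ± 0.34 in nep-23 and by 4.14 ± 0.23 in nep-18. In these 3 genes no male array came near a hermaphrodite array, and all hermaphrodite arrays lay below the filter value. With 64.6 signal units added the fed difference was 2.85 for nep-23 and 2.79 for nep-18.

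Several neprilysin genes lie side by side on chromosome II. In the gene order of the RefSeq table nep-20, nep-9, nep-10, nep-8, nep-6 and nep-11 follow each other with at most 2 other protein-coding genes between neighbours, and each was called as higher in males both fed and fasted, where 38.9% and 38% of all tested probe sets were. Of the 6, nep-11 alone passed the filter in both sexes, and the other 5 could be tested only because they were high on male arrays, so the count says nothing about the run as a whole. In fed worms nep-10 read 7.52, 7.47 and 7.47 in males and 1.20, 1.19 and 3.03 in hermaphrodites (5.68 ± 0.51, limma adjusted p = 5.97e-07). The values of nep-8 were 7.66, 7.96 and 8.12 in males and 1.07, 4.42 and 3.92 in hermaphrodites (4.77 ± 0.69, limma adjusted p = 4.47e-05). Both genes were well above the filter value in males alone, with hermaphrodite values too scattered for the size of the difference to be fixed: adding 64.6 signal units gave 1.83 for nep-10 and 1.99 for nep-8.

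The last gene of this run, nep-11, lay above the filter value on all arrays, at 6.44 to 6.78 in fed hermaphrodites and 7.98 to 8.15 in fed males, a difference of 1.47 ± 0.17, or 2.77-fold (limma adjusted p = 7.1e-06), and of 1.68 ± 0.17 when fasted. Its other probe set gave 2.02 and 1.96. The fed difference was 4.08 ± 0.91 in nep-9, 2.61 ± 0.81 in nep-20 and 2.33 ± 0.35 in nep-6, and the fasted difference 3.01, 4.75 and 2.25. For nep-9 the fed male arrays, at 5.32 to 6.42, lay around the filter value themselves, and its difference was 0.79 with 64.6 signal units added. Whether the 6 genes were read apart from each other was not tested.

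The other runs of neighbouring members were mixed. On chromosome V nas-16, nas-18, nas-17 and nas-19 lie next to each other, of which nas-17 and nas-19 passed the filter and were higher in males, while nas-18 read 2.38 to 5.57 over all arrays. Also on chromosome V, nas-20 and nas-22 flank nas-21, which read 0.91 to 5.52 over all arrays with no sex apart. On chromosome IV nep-23 was high in males and its neighbour nep-24 read 1.19 to 5.28. By chromosome, 8 of the 11 measured astacins on V were tested and all 8 were higher in males in both feeding states, beside the same 38.9% and 38% of all tested probe sets, and 4 of the 8 (nas-17, nas-19, nas-22 and nas-24) had passed the filter through male arrays alone. Of the 8 measured astacins on X, 5 were tested, with 2 higher and 1 lower in fed males. Of the 18 measured neprilysins on II, 13 were tested, with 11 higher and 1 lower in fed males. Beside both counts, 38.9% of all tested probe sets were higher and 35.9% lower. Most of the tested neprilysins on II (nep-2, nep-5, nep-6, nep-8, nep-9, nep-10, nep-18, nep-20 and nep-25) had passed the filter through male arrays alone. Their count thus says nothing about the chromosome.

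**Figure D3:**
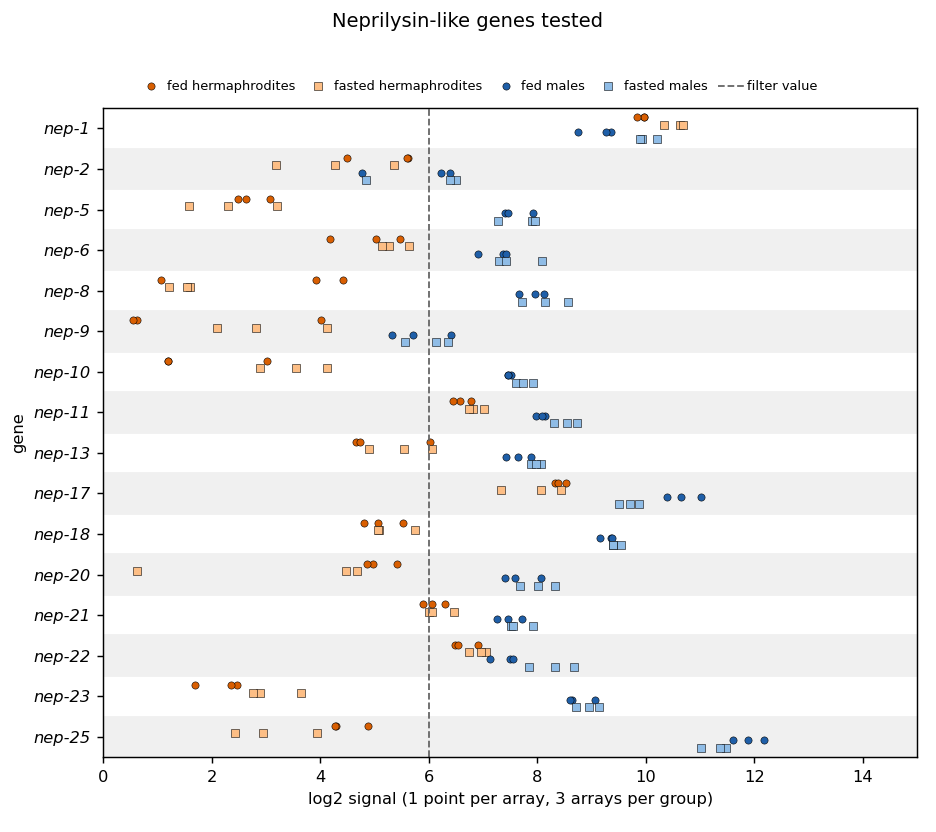
Log2 signal of each tested neprilysin on each of the 12 arrays, by group, with the filter value of 6.01 marked. The male arrays of nep-25 (11.01 to 12.18) stand far above its hermaphrodite arrays (2.44 to 4.88), while nep-1 lies between 8.75 and 10.68 in all groups, with fed males lowest.

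The neprilysins nep-17, nep-13, nep-5, nep-21 and nep-22 were also higher in males in both feeding states. The gene nep-17 was measured above the filter value everywhere, at 8.33, 8.53 and 8.38 in fed hermaphrodites and 11.01, 10.39 and 10.64 in fed males, a difference of 2.27 ± 0.24, or 4.81-fold (limma adjusted p = 3.21e-06), and of 1.75 ± 0.24 when fasted. For nep-13 the fed difference was 2.51 ± 0.37 and for nep-5 it was 4.87 ± 0.45, the latter from hermaphrodite arrays at 2.48 to 3.08, so that it shrank to 1.86 with 64.6 signal units added. The difference of nep-21 was 1.40 ± 0.22 when fed and 1.49 ± 0.22 when fasted, and its other probe set gave 2.13 when fed and 1.04 when fasted, the last not called (limma adjusted p = 0.189). The difference of nep-22 was 0.76 ± 0.23 in fed worms (limma adjusted p = 0.0104) and 1.36 ± 0.23 in fasted worms. In fed worms it was 0.22 under median centring and 0.29 under quantile normalization, neither called.

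The neuropeptide-degrading nep-2 differed less clearly between the sexes. It read 5.36, 3.18 and 4.27 in fasted hermaphrodites and 6.50, 6.39 and 4.85 in fasted males, with the groups overlapping, and the difference was 1.64 ± 0.66 (limma adjusted p = 0.0407). That call was lost when fasted hermaphrodite replicate 2 (1.10) or 3 (1.64), or fasted male replicate 1 (1.35) or 2 (1.40), was left out. It was also lost under median centring (1.02), quantile normalization (1.12), without the filter (adjusted p = 0.0528) and with only the arrays compared in the fit (adjusted p = 0.0552). In fed worms nep-2 was not called (0.56 ± 0.66, limma adjusted p = 0.451).

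The locomotion gene nep-1 was lower in males, unlike the other neprilysins that were called. It read 9.97, 9.96 and 9.83 in fed hermaphrodites, 10.34, 10.63 and 10.68 in fasted hermaphrodites, 9.35, 9.27 and 8.75 in fed males and 9.93, 10.21 and 9.89 in fasted males. In both feeding states the male arrays lay below the hermaphrodite arrays, by -0.80 ± 0.17 when fed (limma adjusted p = 0.000822) and by -0.54 ± 0.17 when fasted (limma adjusted p = 0.0113). The fed difference was -1.34 under median centring and -0.45 under quantile normalization, both called. The fasted one was -0.30 and not called under quantile normalization, and its other probe set gave -0.64 when fed and -0.23, not called, when fasted. The summed signal of the neuron markers was 7611 to 8589 in fed hermaphrodites and 17215 to 19068 in fed males. Of their 12 tested genes 10 were higher in fed males, where 38.9% of all tested probe sets were. Not all moved alike: from fed hermaphrodites to fed males the mean went from 8.43 to 8.14 for unc-119 and from 12.41 to 12.66 for snb-1. The part of the neuron markers in the difference of nep-1 was not tested.

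Beside the genes that were higher in males stand the markers of male tissues. The summed signal of the 15 measured sperm genes was 2376 to 3770 in hermaphrodites with food and 35071 to 40996 in males with food, and that of the 11 measured genes of male somatic tissue and seminal fluid was 3405 to 4062 and 21581 to 24564. Both sums stayed apart in fasted worms, at 1852 to 2420 against 32667 to 41059 and at 2591 to 4208 against 16199 to 19055. No marker of either list was at 0 on any array. From which male tissue the signal of nas-17, nas-19, nas-24, nep-25 or the chromosome II run came cannot be told from whole worms, and the part of the markers in these differences was not tested.

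Few tested members were called for fasting. In hermaphrodites 2 of 16 tested astacins fell and none rose, and 2 of 16 tested neprilysins rose and 1 fell, while 11.4% of all tested probe sets were called, 5.72% as higher in fasted worms and 5.69% as lower. In males 2 astacins fell and none rose, and 2 neprilysins rose and 1 fell, against 27.3% called over all probe sets, 19% higher and 8.31% lower. On the deposited values the members were thus called at 15.6% in each sex, beside 11.4% of all probe sets in hermaphrodites and 27.3% in males. In males the share over all probe sets was 18.4% under median centring. There every male fasting call of a member was kept and that of nas-5 was added. The lower share of members in males thus depends on the scaling. The calls in hermaphrodites included nep-10 and nep-25, which lay below the filter value on all arrays of that sex. Fed and fasted arrays did not overlap for 5 astacins and 4 neprilysins in hermaphrodites and for 7 of each family in males, beside 30.2% and 44.6% of all tested probe sets. The median change was -0.08 in hermaphrodites and -0.13 in males for the tested astacins and 0.21 and 0.22 for the tested neprilysins, beside 0.09 and 0.23 over all tested probe sets. Median centring moved the last of these from 0.23 to 0.04 and, over all probe sets called in males, the share that rose from 69.6% to 44.2%; in hermaphrodites that share went from 50.1% to 34.7%.

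The gene nas-11 had the largest fasting change among the tested astacins in each sex. Fed hermaphrodites read 11.83, 11.44 and 11.70 and fasted ones 9.16, 9.31 and 9.57, while fed males read 12.62, 12.63 and 12.50 and fasted ones 10.99, 11.23 and 11.04. In both sexes every fasted array lay below every fed array, and fasted males lay just below fed hermaphrodites. The level fell by 2.31 ± 0.14 in hermaphrodites, or 4.96-fold (limma adjusted p = 4.21e-07), and by 1.50 ± 0.14 in males, or 2.83-fold (limma adjusted p = 1.13e-05). These falls were called under every alternative that was run and with any 1 array left out. Of the intestine markers 7 of 14 fell and 1 rose in fasted hermaphrodites, and 4 of 14 fell and 1 rose in fasted males. Over all tested probe sets 5.69% and 8.31% fell. The summed signal of these markers went from 40029 to 45886 down to 19826 to 22380 in hermaphrodites. In males it was 77700 to 97683 when fed and 66530 to 82773 when fasted, with overlap. Of the body wall muscle markers 3 of 12 fell in hermaphrodites and 7 of 12 in males, and none rose. Their sum went from 26533 to 28855 to 21938 to 24171 in hermaphrodites and from 50557 to 55715 to 26383 to 31886 in males. The part of either list in the fall of nas-11 was not tested.

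**Figure D4:**
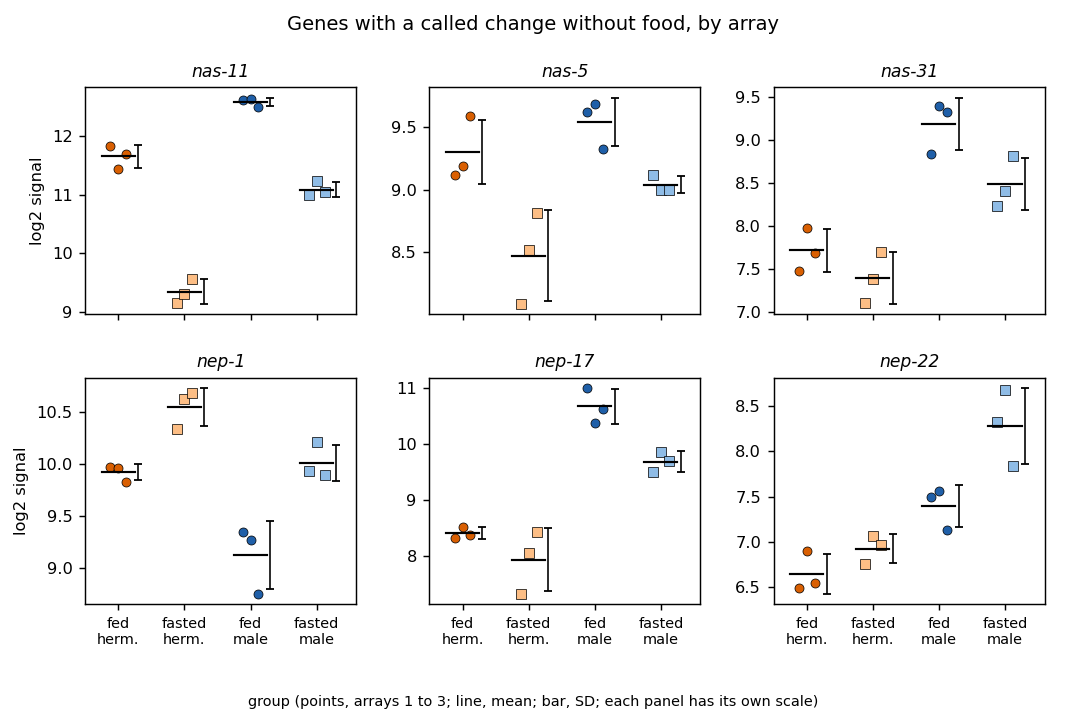
Log2 signal on each array of 6 members with a called fasting change and a level above the filter value (nas-11, nas-5, nas-31, nep-1, nep-17 and nep-22), by group, with the group mean as a line and the SD of 3 arrays as a bar. For nas-11 the fasted arrays lie at 9.16 to 9.57 in hermaphrodites and 10.99 to 11.23 in males, below all fed arrays of the same sex, whereas nep-1 lies higher on every fasted array than on every fed array of its sex.

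The size of the fall of nas-11 differed between the sexes. The interaction, fasting in males minus fasting in hermaphrodites, was 0.81 ± 0.19 (limma adjusted p = 0.032), and it was the only one called among the 32 tested members, while 5.28% of all tested probe sets were called, 3.82% as higher and 1.46% as lower. Without 1 array at a time it was 0.72 to 0.92. Its call was lost when any of 8 arrays was left out (adjusted p between 0.0539 and 0.0761): fed hermaphrodite replicates 1 and 3, fasted hermaphrodite replicates 1 and 2, all 3 fed male replicates and fasted male replicate 2. It was 0.72 under median centring (adjusted p = 0.0901) and 1.25 under quantile normalization (adjusted p = 0.00533). For the neprilysins limma called no interaction, and none of the 16 had an unadjusted p under 0.05. Without fed hermaphrodite replicate 1 the interaction of nep-8 was called, at 2.95, where with all arrays it was 1.91 ± 0.98, from hermaphrodite values below the filter. In that fit its fasting change in hermaphrodites, -1.68 ± 0.69 with all arrays, was called at -2.72.

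The other called changes of astacins were smaller. The gene nas-5 read 9.12, 9.19 and 9.59 in fed and 8.09, 8.52 and 8.81 in fasted hermaphrodites and fell by 0.83 ± 0.19, or 1.78-fold (limma adjusted p = 0.0133), a call lost without fed hermaphrodite replicate 3 (-0.68, adjusted p = 0.0545). In males nas-5 went from 9.62, 9.68 and 9.32 to 9.12, 9.0 and 9.0, also without overlap, which was not called (-0.50 ± 0.19, limma adjusted p = 0.0711), but was under quantile normalization (-0.74) and median centring (-0.69). The gene nas-31 read 8.84, 9.40 and 9.33 in fed and 8.23, 8.41 and 8.82 in fasted males and fell by 0.70 ± 0.22 (limma adjusted p = 0.0348). This call was lost without fed male replicate 2 (-0.60) or 3 (-0.63) or fasted male replicate 1 (-0.58) or 2 (-0.66). In hermaphrodites nas-31 changed by -0.32 ± 0.22 with overlapping arrays.

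Among the astacins that were high in males, nas-17 stood at the edge of the threshold. Its fasted male arrays, at 13.32, 12.80 and 12.76, all lay below its fed male arrays, at 14.12, 13.94 and 13.87, a change of -1.02 ± 0.40 (limma adjusted p = 0.0827). With the replicate number as a block, which joins the same-numbered samples of all groups, it was called (adjusted p = 0.0145), and so it was without fed hermaphrodite replicate 3 (adjusted p = 0.0177). With the male arrays alone in the fit the adjusted p was 0.00332, since the scattered hermaphrodite values of nas-17 no longer entered the spread. In the same male-only fit nas-19 was called at -0.68 (adjusted p = 0.0039), a change with an adjusted p of 0.655 when all arrays shared the spread. The change of nas-24 in males was -0.22 ± 0.54 (limma adjusted p = 0.812). In hermaphrodites nas-20 went from 8.24, 7.88 and 8.25 to 7.46, 7.61 and 7.49 without overlap (-0.60 ± 0.19, limma adjusted p = 0.0584), and it was called under median centring (-0.70), under the stricter filter and without fed hermaphrodite replicate 2 or fed male replicate 1 or 3.

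**Figure D5:**
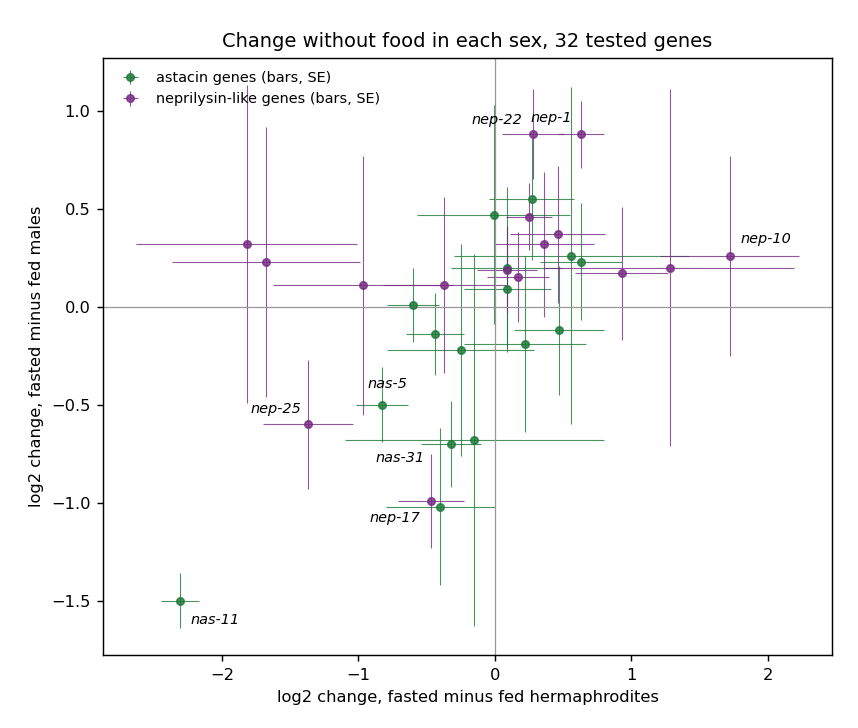
Change with fasting (log2, fasted minus fed) in hermaphrodites on the horizontal axis and in males on the vertical axis for the 32 tested members, with bars for the standard error of the fit and names for members called in at least 1 sex. The gene nas-11 lies far to the lower left at -2.31 and -1.50, nep-1 lies to the upper right at 0.63 and 0.88, and most others lie around 0.

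Of the neprilysins only nep-1 was called in both sexes. It rose by 0.63 ± 0.17 in hermaphrodites, or 1.54-fold (limma adjusted p = 0.0292), and by 0.88 ± 0.17 in males, or 1.85-fold (limma adjusted p = 0.00204), with every fasted array above every fed array of the same sex. The interaction was 0.26 ± 0.24 and not called. The rise in males was called under every alternative, and the other probe set gave 0.71 there. The call in hermaphrodites was lost without any 1 of the 3 fed hermaphrodite replicates or fasted hermaphrodite replicates 2 and 3 (0.56 to 0.65, adjusted p up to 0.104). It was also lost under median centring (0.52), without the variance trend (adjusted p = 0.0527) and with the other probe set (0.30, adjusted p = 0.21).

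In males nep-17 and nep-22 moved in opposite directions. Fed males read 11.01, 10.39 and 10.64 for nep-17 and fasted males 9.50, 9.87 and 9.70, a fall of 0.99 ± 0.24, or 1.99-fold (limma adjusted p = 0.00982), which was called under every alternative. Hermaphrodite arrays of nep-17 overlapped (-0.47 ± 0.24, limma adjusted p = 0.256). For nep-22 the level went from 7.50, 7.56 and 7.13 to 8.33, 8.68 and 7.84 in males, a rise of 0.88 ± 0.23 (limma adjusted p = 0.0137). That call was lost without fed male replicate 3 (0.75, adjusted p = 0.0514) or fasted male replicate 2 (0.69, adjusted p = 0.0663). In hermaphrodites nep-22 changed by 0.28 ± 0.23. The male arrays of nep-11 went from 7.98 to 8.15 up to 8.30 to 8.74 without overlap (0.46 ± 0.17, limma adjusted p = 0.0686), which was called with 64.6 signal units added (0.38), without the variance trend and without fasted male replicate 1 (0.57).

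Both remaining calls were made on hermaphrodite arrays below the filter value. The gene nep-10 read 1.20, 1.19 and 3.03 in fed and 2.90, 4.12 and 3.56 in fasted hermaphrodites, with overlap, a change of 1.72 ± 0.51 (limma adjusted p = 0.0483). The call was lost in 10 of the 12 fits that left out 1 array, kept without fed hermaphrodite replicate 3 or fasted hermaphrodite replicate 1, and the change was 0.16 with 64.6 signal units added. It was also lost under median centring (1.61, adjusted p = 0.0693) and quantile normalization (1.67, adjusted p = 0.077). The gene nep-25 read 4.29, 4.88 and 4.27 in fed and 2.95, 2.44 and 3.95 in fasted hermaphrodites, a change of -1.37 ± 0.33 (limma adjusted p = 0.0182). It was lost without fed hermaphrodite replicate 2 (-1.17) or fasted hermaphrodite replicate 1 (-1.29) or 2 (-1.03), and was -0.24 with 64.6 signal units added. In males, where nep-25 was well measured, fasted arrays lay at 11.01 to 11.48 and fed arrays at 11.61 to 12.18, a change of -0.60 ± 0.33 (limma adjusted p = 0.21) that was called with the male arrays alone in the fit (adjusted p = 0.0369).

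The astacins nas-6 and nas-7, which act in forming the grinder of the pharynx, read 1.56 to 5.65 and 3.99 to 5.98 over all arrays, below the filter value. The astacin nas-38, which acts in the quiescence of moulting larvae, read 5.20 to 6.27 over all arrays and was called in no comparison, although under median centring it was lower in males by -0.92 when fed and -1.0 when fasted and under quantile normalization by -1.0 and -0.93. The values of nas-8 and nas-33 lay at 4.74 to 6.91 and were called in none of the 5 comparisons, except that nas-33 was higher in fasted males without fasted hermaphrodite replicate 2 (1.25) or fasted male replicate 2 (1.13).

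Relatives outside the naming rule were read for context. The astacin family also holds hch-1, dpy-31 and toh-1, of which hch-1, the hatching enzyme, was lower in fed males by -5.87 ± 0.74 (limma adjusted p = 1.24e-05), opposite in direction to most tested nas genes. The size of this difference rests on fed male arrays at 2.24 to 3.19, below the filter value. The gene dpy-31, which encodes a procollagen C-proteinase of the cuticle, was higher in fed males by 1.07 ± 0.17 and in fasted males by 0.93 ± 0.17, the latter 0.31 and not called under median centring. None of these 3 was called for fasting in either sex by limma, and none had an unadjusted p under 0.05 there. Of 8 measured matrix metalloproteases and inhibitors 5 were tested, and 3 of them fell with fasting in each sex, where 5.69% of all tested probe sets fell in hermaphrodites and 8.31% in males. Among them timp-1, an inhibitor of metalloproteases, fell by 1.26 ± 0.18 in hermaphrodites and by 2.63 ± 0.18 in males (interaction -1.37 ± 0.26, limma adjusted p = 0.0128). Of 9 measured ADAM and ADAMTS proteases 6 were tested and 2 fell in each sex, namely mig-17, which acts in migration of the gonad (-1.42 ± 0.22 and -1.84 ± 0.22), and adt-2 (-0.71 ± 0.20 and -1.57 ± 0.20). The call of adt-2 in hermaphrodites was lost in 8 of the 12 fits that left out 1 array, and that of cri-2, another inhibitor (-0.77 ± 0.18), without fed hermaphrodite replicate 3 or fasted hermaphrodite replicate 1, while in males the call of zmp-4 (-0.42 ± 0.11) was lost without fed male replicate 1. In fed males 3 genes of the ADAM list were lower, among them unc-71 (-4.31 ± 0.24) and sup-17 (-2.15 ± 0.16), and 2 were higher, mig-17 (1.43 ± 0.22) and adt-2 (0.91 ± 0.20). The median fasting change of the matrix metalloprotease and ADAM lists was -0.49 and -0.06 in hermaphrodites, beside 0.09 over all tested probe sets, and -0.58 and 0.19 in males, beside 0.23.

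The other genes of neuropeptide production and breakdown, a list of 16 that were all tested, were read beside the neprilysins. In fed males 8 were higher and 6 lower (median 0.39, beside 38.9% higher and 35.9% lower over all tested probe sets). Among the higher ones were the dipeptidyl peptidase family gene dpf-1 (3.66 ± 0.49), the proprotein convertase egl-3 (2.74 ± 0.13), the carboxypeptidase egl-21 (2.46 ± 0.10) and the chaperone sbt-1 (2.35 ± 0.11). The size for dpf-1 rests on fed hermaphrodite arrays at 2.31 to 2.83, below the filter value. Its relatives dpf-3 (-1.35 ± 0.13) and dpf-4 (-1.21 ± 0.12) were among the lower. With fasting 4 rose and 1 fell in each sex, where 5.72% of all tested probe sets rose and 5.69% fell in hermaphrodites and 19% rose and 8.31% fell in males, with medians of 0.20 and 0.32 beside 0.09 and 0.23 over all tested probe sets. The convertase kpc-1 rose by 0.92 ± 0.22 in hermaphrodites, a call lost without fed hermaphrodite replicate 3 or fasted hermaphrodite replicate 3, and by 1.51 ± 0.22 in males, and aex-5 fell by 1.72 ± 0.36 and by 1.09 ± 0.36. The fall of aex-5 in males was no longer called in 6 of the 12 fits that left out 1 array, the rise of cpd-1 in hermaphrodites (0.72) in 8 of them and the rise of dpf-5 in males (0.44) in 4.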

How the data were processed

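RNA of whole worms was hybridised to 12 one-colour Affymetrix C. elegans arrays, 3 biological replicates in each of 4 groups. The authors deposited a log2 signal for each probe set. MAS5 made it, according to the submitters' processing notes, and the version is not given in the sources used here. Taken back from log2, their 2% trimmed mean was 500.1 to 500.2 on all arrays. The values were used as deposited. Of 22625 probe sets 77 controls were left out. Detection calls were not used here, and 1171 values were exactly 0.

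Genes came from the platform annotation: 20766 probe sets had 1 gene, 887 several and 895 none. The RefSeq table of WBcel235 served for names, chromosomes and gene order only. Probe sets above the 40th percentile (log2 6.01) on at least 3 arrays were tested. Group means were fitted with limma 3.58.1 in R 4.3.3 (lmFit, eBayes with a variance trend, 12.2 total degrees of freedom), two-sided, with Benjamini-Hochberg adjustment over 15913 probe sets. The procedure was tested on simulated data. Python 3.11.15 with pandas 2.3.3 and matplotlib 3.10.9 made tables and figures.

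The members, the lists and the rule for named genes (in each comparison the called members, up to 12 astacins and 8 neprilysins by the size of the change, called interactions, members with a published role, and up to 4 called genes per related list) were chosen with earlier results of these data known. Members and list genes named beyond that rule were chosen after their values were seen. Alternatives were pseudocounts of 64.6 and 20.1 signal units, no filter, a stricter filter (60th percentile), median centring, quantile normalization, the replicate block, only the arrays compared, no variance trend, other probe sets, and each array left out. The submitters' design text gives 4 samples per experiment in 3 experiments. Replicate numbers come from the sample titles. Deviations of same-numbered fed and fasted samples from their group means correlated at 0.129 to 0.259 in hermaphrodites and 0.119 to 0.274 in males. Samples of different numbers were not compared in this way. The numbers were taken to pair the samples in the replicate block, and the main fit did not use them. Between the sexes the correlations were 0.08 to 0.204 when fed and 0.052 to 0.197 when fasted. The number of arrays limits the precision.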

Additional observations from a re-analysis of the deposited data

Results flagged for a closer look

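The response of nas-11 to fasting differed between the sexes by a test of the difference itself, with an interaction of 0.81 ± 0.19 (limma adjusted p = 0.032). The level fell by 2.31 in hermaphrodites and by 1.50 in males, and the call did not hold when any of 8 of the 12 arrays was left out.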

How the results depend on the processing

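Of the 64 calls made on members, 48 were kept in every alternative run for them and 1 changed direction, the difference of nas-5 between fasted males and hermaphrodites, which was -0.06 under median centring. The astacins called for fasting in males numbered 2 as reported, 4 with the larger pseudocount and 5 with only the arrays compared, and 1 to 3 with 1 array left out. Those called for fasting in hermaphrodites numbered 1 to 3 with 1 array left out. For the interaction 1 astacin was called as reported, 2 with the larger pseudocount, 0 under median centring and without the variance trend, and 0 to 1 with 1 array left out. Astacins called between fed males and hermaphrodites numbered 11 as reported, 7 under the stricter filter, which tested 8, and 9 to 11 with 1 array left out, and in fasted worms 10 to 12. The neprilysins called for fasting in hermaphrodites numbered 3 as reported, 1 with either pseudocount, 1 under median centring, 1 with only the arrays compared and 0 to 2 with 1 array left out. For fasting in males they numbered 3 as reported, 5 with the larger pseudocount and 2 to 4 with 1 array left out, and for the interaction 0 to 1. Between the sexes they numbered 15 in every such fit when fed and 15 to 16 when fasted.

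With the replicate number as a block all 64 calls were kept, and the pairing added 1 call among the members, the fall of nas-17 in fasted males (-1.02, adjusted p = 0.0145). The differences of genes that are low in 1 sex shrank with a pseudocount. Adding a constant shrinks any difference, and most where a value is low, so this does not show why those values are low. The cause of the changes between settings was not tested.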

Other observations

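Below the filter, nep-4 differed between groups when all probe sets were tested: it read 2.57, 2.60 and 2.81 in fed hermaphrodites, 5.0, 4.86 and 5.34 in fasted hermaphrodites, 1.90, 1.62 and 2.19 in fed males and 2.29, 2.00 and 1.18 in fasted males. The fasted hermaphrodite arrays lay above all others, with a change of 2.41 ± 0.53 (limma adjusted p = 0.0138). It was picked out after its values were seen, and all of its values are in a range that the array reads poorly. In the same fit nas-16 was higher in males by 2.56 when fed and 2.84 when fasted, from hermaphrodite arrays at 1.03 to 3.11 and male arrays at 2.65 to 5.95.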
